A study of Homo sapiens with 12 samples.

Results

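Ligands, receptors and targets of the transforming growth factor beta (TGF-β) and bone morphogenetic protein (BMP) pathways were followed across 4 lines of MIA PaCa-2, a human pancreatic carcinoma cell line. The 10 genes were TGFB1, TGFB2, TGFB3, INHBA, BMP4, TGFBR1, TGFBR2, SMAD7, ID1 and ID3, picked by symbol from 63086 genes in the table of normalised read counts. All 10 were tested, as were 15987 genes in all whose normalised count averaged 10 or more. The WT line was not manipulated. The CRISPR Control line had gone through editing and carried a silent change in TIMP1, which encodes a secreted inhibitor of metalloproteinases. In a pair of clones, TIMP1 KO 1 and TIMP1 KO 2, exon 4 of TIMP1 was targeted with CRISPR-Cas9. Each KO line is a clone, so a difference from WT that came from picking the clone and a difference that came from targeting TIMP1 cannot be told apart within that line. All lines were grown in the same medium with serum. Each had 3 libraries of total RNA, labelled as biological replicates, and p-values measure the spread between these libraries. WT and CRISPR Control are called the competent lines below, and KO 1 and KO 2 the deficient lines.

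In these pathways secreted dimers bind paired type I and type II receptor kinases, which phosphorylate SMAD proteins that enter the nucleus. TGF-β and activin ligands act mainly through SMAD2 and SMAD3, and BMP ligands mainly through SMAD1, SMAD5 and SMAD9. SMAD4, the partner that both branches share, is often lost in pancreatic carcinoma, and the ID genes, which encode inhibitors of basic helix-loop-helix factors, are classic BMP targets. SMAD4 RNA was present in all 4 lines, at a mean normalised count from 1487 to 1752.

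The libraries held 26908701 to 36093563 reads in genes. TIMP1 itself had a mean normalised count of 3553 ± 274 in WT and 2690 ± 357 in CRISPR Control, against 1600 ± 32.8 in KO 1 and 1161 ± 28.8 in KO 2 (SD, n = 3 in each line here and below), so it was lower in both deficient lines than in both competent lines without being absent. All 6 listed markers of pancreatic carcinoma epithelium were detected in every line. Their summed normalised count ran from 56587 to 72786 in CRISPR Control and from 174305 to 223516 in the other lines. Within this list CDH1, the gene of E-cadherin, and KRT19, a keratin, both named after their values were seen, ranked the lines in opposite ways. CDH1 was at 128 ± 28.1 in KO 1 and 84.9 ± 17.1 in KO 2 against 1189 ± 56.6 in WT and 1424 ± 73.0 in CRISPR Control. KRT19 was at 24591 ± 1628 in KO 1 and 52497 ± 6264 in KO 2 against 15707 ± 984 in WT and 4583 ± 766 in CRISPR Control. The 4 listed markers of mesenchymal-type carcinoma cells were also detected in every line. CDH2 was at 571 ± 17.0 in WT and 1110 ± 65.1 in CRISPR Control, against 93.7 ± 10.1 in KO 1 and 384 ± 23.4 in KO 2. FN1 was at 105 ± 12.4, 826 ± 170, 51.2 ± 8.33 and 90.6 ± 13.9 in the same order. VIM was at 70742 ± 1634, 58625 ± 6621, 93176 ± 1729 and 72716 ± 3198. ZEB1 was at 1226 ± 48.6, 954 ± 142, 1288 ± 6.33 and 1258 ± 124. The 3 endothelial markers summed to at most 32.3 in any library, and the 4 fibroblast markers to at most 70.8 outside KO 2, where they reached 301.5 to 357. PDGFRA alone made up most of that, at 283 ± 18.5 in KO 2, whereas PDGFRB was at 48.2 ± 18.3 there and 53.7 ± 14.0 in CRISPR Control. CD3E, a T cell marker, had no reads in WT, CRISPR Control and KO 1, and DCN, a fibroblast marker, had none in WT, KO 1 and KO 2. The part of these markers in the results was not tested.

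BMP4, a secreted BMP ligand, was the member that differed most between the lines. WT held almost none of its RNA, KO 1 held a great deal, and KO 2 lay between. In RNA from whole cultures, more cells with a transcript and more transcript per cell cannot be told apart. The normalised count in replicates 1, 2 and 3 was 2.26, 3.64 and 5.71 in WT and 13.8, 11.9 and 14.3 in CRISPR Control. It was 2094, 2134 and 1974 in KO 1 and 196, 159 and 137 in KO 2. None of the 4 lines overlapped with another, and the order from low to high was WT, CRISPR Control, KO 2, KO 1. Means were 3.87 ± 1.74, 13.3 ± 1.29, 164 ± 29.9 and 2068 ± 83.2 in that order.

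On the log2(normalised count + 1) scale, which is used for every log2 fold change below, BMP4 rose by 8.79 in KO 1 against WT (SE 0.226, limma adjusted p = 1.48e-15). This was the highest change of the 15987 tested genes. In KO 2 against WT it rose by 5.13 (SE 0.226, adjusted p = 1.21e-12), the value at rank 46. CRISPR Control was also above WT, by 1.61 (SE 0.226, adjusted p = 8.24e-06). Against CRISPR Control the rise was 7.18 in KO 1 and 3.52 in KO 2. KO 2 lay 3.66 below KO 1 (limma adjusted p = 3.65e-10). Few reads lie behind the WT value, 12 in its 3 libraries together, while KO 1 had 6070 and KO 2 had 554. The ratio of summed reads, corrected for the size of the libraries, was 521 for KO 1 over WT, with a 95% interval from 298 to 1008 that covers counting error only. It was 41.9 for KO 2 over WT (23.8 to 81.7), 3.39 for CRISPR Control over WT (1.74 to 7.11) and 12.4 for KO 1 over KO 2 (11.4 to 13.6).

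**Figure D1:**
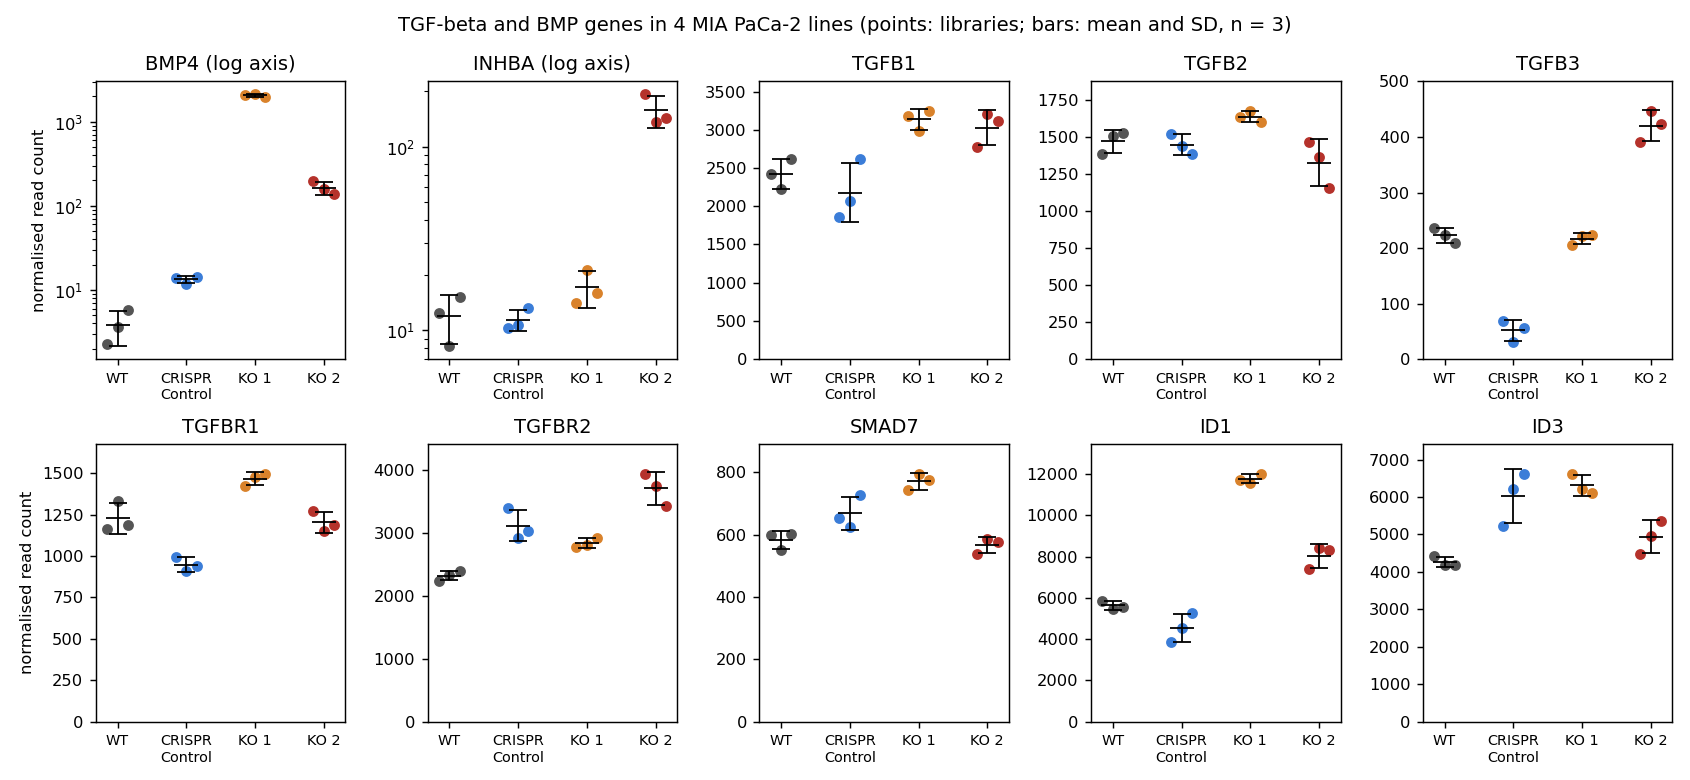
Normalised read count of the 10 genes (y axis; log axis for BMP4 and INHBA, axes from 0 otherwise) in the 3 libraries of each line (x axis), with black bars for the mean and SD. BMP4 separates all 4 lines, from a mean of 3.87 in WT to 2068 in KO 1, and INHBA stands apart in KO 2 at 157.

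BMP4 lies on chromosome 14 at 53949736 to 53958761 (GRCh38, minus strand). A gene known only by its identifier, ENSG00000287156, overlaps it on the other strand, and its mean normalised count was 0 in WT and CRISPR Control, 23.4 in KO 1 and 2.04 in KO 2. The strand setting of the counting is not given in the sources used here, so reads of this pair cannot be told apart. The 250 bases before a start of BMP4, ID1 and ID3 are shown because they are the BMP ligand of the set and a pair of classic BMP targets. RefSeq gives 3 starts for BMP4, of which the first listed is shown, and 1 each for ID1 and ID3 (GRCh38.p14). The windows are chr14:53955051-53955300 on the minus strand for BMP4, chr20:31605039-31605288 on the plus strand for ID1 and chr1:23559502-23559751 on the minus strand for ID3. The BMP4 window lies inside the gene span given above, so it belongs to an internal start. Distances from the BMP4 start given below are taken from the outer end at 53958761. Capitals mark matches, on either strand, to GGCGCC and GGAGCC, which are forms of the GC-rich element that SMAD proteins bind, and to CAGAC, a form of the SMAD binding element. No capitals of different motifs overlap in these windows.
BMP4: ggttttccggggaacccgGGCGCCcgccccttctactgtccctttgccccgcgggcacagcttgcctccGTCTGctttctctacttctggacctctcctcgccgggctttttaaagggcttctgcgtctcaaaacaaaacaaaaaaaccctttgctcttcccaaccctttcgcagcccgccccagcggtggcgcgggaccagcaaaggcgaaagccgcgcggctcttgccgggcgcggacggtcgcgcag
ID1: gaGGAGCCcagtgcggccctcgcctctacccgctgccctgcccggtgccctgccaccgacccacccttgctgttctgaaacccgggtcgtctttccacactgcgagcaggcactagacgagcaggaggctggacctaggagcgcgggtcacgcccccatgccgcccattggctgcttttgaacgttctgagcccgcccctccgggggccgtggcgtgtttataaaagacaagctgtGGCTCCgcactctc
ID3: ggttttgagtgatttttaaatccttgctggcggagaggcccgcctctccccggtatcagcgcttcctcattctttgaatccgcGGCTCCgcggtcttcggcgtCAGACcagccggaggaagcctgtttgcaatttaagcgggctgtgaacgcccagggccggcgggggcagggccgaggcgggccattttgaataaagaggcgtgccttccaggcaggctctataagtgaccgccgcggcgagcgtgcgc
The BMP4 window held 1 match to GGCGCC and 1 to CAGAC, the ID1 window 2 to GGAGCC, and the ID3 window 1 to GGAGCC and 1 to CAGAC. Of 35116 windows of this length before RefSeq starts, 16.4% held GGCGCC, 30.6% held GGAGCC and 38% held CAGAC, so such matches are common.

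The tested protein-coding genes within 1 Mb of BMP4 were looked at after its values had been seen. There were 7 of them, and none moved like BMP4. In KO 1 against WT, 5 of the 7 rose and the changes ran from 0.04 to 0.94, where 18.0% of all tested genes rose. In KO 2 against WT, 5 of the 7 rose, from 0.01 to 0.99, where 27.1% of all tested genes rose. In CRISPR Control against WT, 0 of the 7 rose and 2 fell, where 27.2% of all tested genes rose and 26.3% fell. The changes there ran from -1.18 to 0.26. CDKN3, the nearest at 438 kb, rose by 0.94 in KO 1 and 0.34 in KO 2. SAMD4A, at 607 kb, rose by 0.75 and 0.99.

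**Figure D2:**
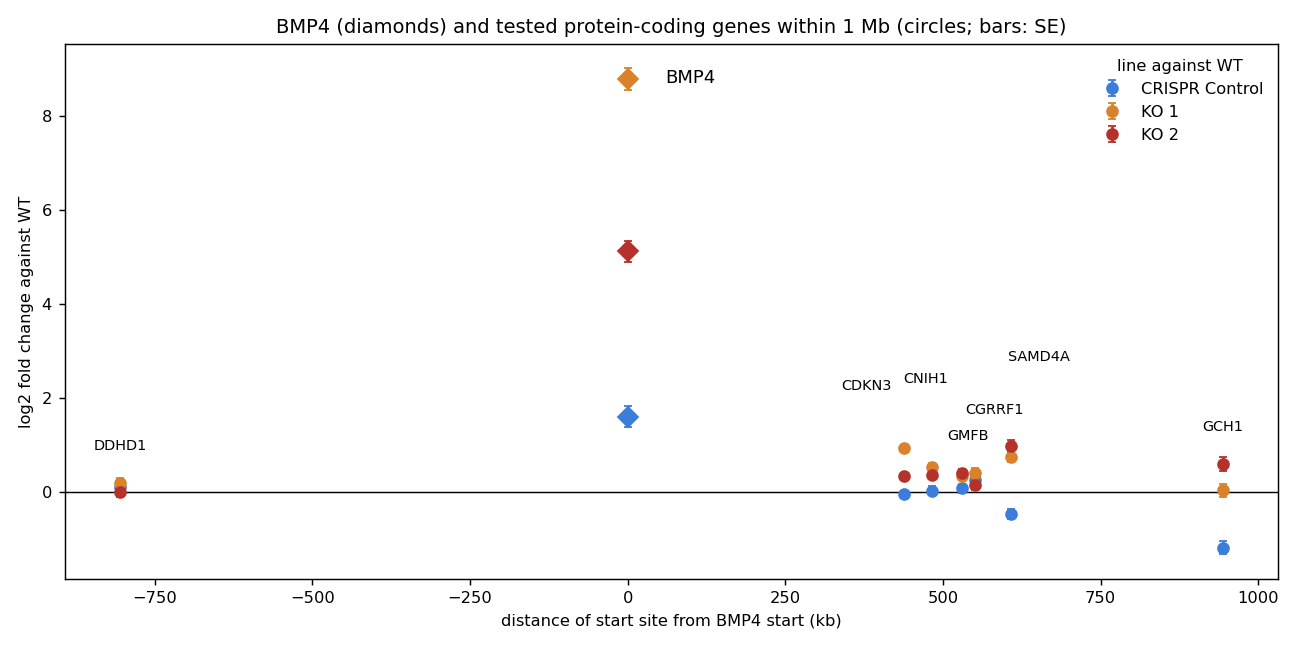
Log2 fold change against WT (y axis) of BMP4 (diamonds) and of the 7 tested protein-coding genes within 1 Mb (circles) against distance from the BMP4 start in kb (x axis), with SE bars. BMP4 stands at 8.79 in KO 1 and 5.13 in KO 2, while no neighbour exceeds 0.99. In CRISPR Control BMP4 stands at 1.61 and the neighbours run from -1.18 to 0.26.

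INHBA encodes the βA subunit, which forms activin A. Its RNA was scarce except in KO 2. The normalised count in replicates 1, 2 and 3 was 12.4, 8.18 and 15.2 in WT, 10.4, 10.7 and 13.2 in CRISPR Control and 14, 21.4 and 15.9 in KO 1. In KO 2 it was 194, 136 and 142, above all 9 other libraries. The mean was 12 ± 3.56 in WT and 157 ± 31.8 in KO 2, which is 3.63 on the log2 scale (SE 0.287, limma adjusted p = 4.09e-09). KO 2 was 3.66 above CRISPR Control and 3.13 above KO 1 (SE 0.287 each, adjusted p = 1.69e-09 and 8.12e-08). KO 1 differed from WT by 0.50 (SE 0.287, adjusted p = 0.188), and these lines overlapped. INHBA is on chromosome 7 at 41667168 to 41705834 (minus strand). The antisense gene INHBA-AS1 had a mean normalised count of at most 5.18 in any line.

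The 3 TGF-β ligands, which bind the same receptors, each had their own order of the 4 lines. TGFB1, on chromosome 19 at 41301587 to 41353922 (minus strand), had normalised counts of 2424, 2225 and 2621 in WT and 1860, 2063 and 2612 in CRISPR Control, against 3176, 2988 and 3249 in KO 1 and 2771, 3202 and 3113 in KO 2. All 6 deficient libraries lay above all 6 competent libraries, although the lowest KO 2 library was only 1.06 times the highest WT library. TGFB1 rose by 0.37 in KO 1 against WT (SE 0.102, limma adjusted p = 0.00758) and by 0.32 in KO 2 against WT (SE 0.102, adjusted p = 0.0123). CRISPR Control differed from WT by -0.17 (SE 0.102, adjusted p = 0.183; -0.30 without CRISPR Control replicate 3, adjusted p = 0.008), and KO 2 from KO 1 by -0.05 (SE 0.102, adjusted p = 0.718). The KO 2 call was lost without WT replicate 2 (0.26, adjusted p = 0.064) and without KO 2 replicate 2 (0.28, adjusted p = 0.0583). HNRNPUL1, CCDC97 and TMEM91 overlap TGFB1 on the other strand. HNRNPUL1 is abundant, with a mean normalised count of 9486 in WT and 7147 in CRISPR Control, against 8502 in KO 1 and 5952 in KO 2, an order unlike that of TGFB1.

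TGFB2, on chromosome 1 at 218345336 to 218444619 (plus strand), kept close levels, with means of 1469 ± 76.9 in WT and 1447 ± 68.8 in CRISPR Control, against 1634 ± 37.9 in KO 1 and 1325 ± 158 in KO 2. KO 2 was 0.31 below KO 1 (SE 0.086, limma adjusted p = 0.00773), and no other pair of lines passed the threshold. Without KO 2 replicate 3 that difference was -0.21 (adjusted p = 0.0593). Against WT the change was 0.15 in KO 1 and -0.15 in KO 2 (SE 0.086 each). The KO 2 value passed the threshold without KO 2 replicate 1 (-0.23, adjusted p = 0.0408), and the difference of KO 1 from CRISPR Control, 0.18, did so without KO 2 replicate 3 (adjusted p = 0.0478).

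TGFB3, on chromosome 14 at 75958097 to 75983011 (minus strand), was low in CRISPR Control and high in KO 2. Its normalised counts were 235, 224 and 210 in WT and 68.2, 30.8 and 56.0 in CRISPR Control, against 205, 222 and 223 in KO 1 and 392, 447 and 423 in KO 2. WT and KO 1 overlapped and differed by -0.04 (SE 0.197, limma adjusted p = 0.897). CRISPR Control fell by 2.16 against WT (SE 0.197, adjusted p = 3.39e-08), and KO 2 rose by 0.91 (SE 0.197, adjusted p = 0.000674). The rise of KO 1 against CRISPR Control, 2.12, thus went with a low level in CRISPR Control and not with a level above WT. Of the 15 tested protein-coding genes within 1 Mb of TGFB3, also looked at after its values had been seen, 11 fell in CRISPR Control against WT and 1 rose, where 26.3% of all tested genes fell. FLVCR2 fell by 1.82 and NEK9 by 1.52 there. IFT43, 1 of the 15, overlaps TGFB3 on the other strand. Its mean normalised count was 526 in WT and 402 in CRISPR Control, against 659 in KO 1 and 648 in KO 2. As with BMP4, reads of such a pair cannot be told apart, since the strand setting of the counting is not given.

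Per kilobase of exon, TGFB1 was the most abundant of the 3 TGF-β ligands in every line. It made up 72.2% ± 1.83 of their summed level in WT and 72.5% ± 4.34 in CRISPR Control, against 75.5% ± 1.20 in KO 1 and 75.5% ± 2.53 in KO 2. TGFB3 made up 4.17% ± 0.44, 1.09% ± 0.45, 3.26% ± 0.19 and 6.56% ± 0.10 in the same order. BMP4 per kilobase was 1.25 ± 0.561 in WT and 668 ± 26.9 in KO 1, where TGFB1 stood at 961 ± 41.2.

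**Figure D3:**
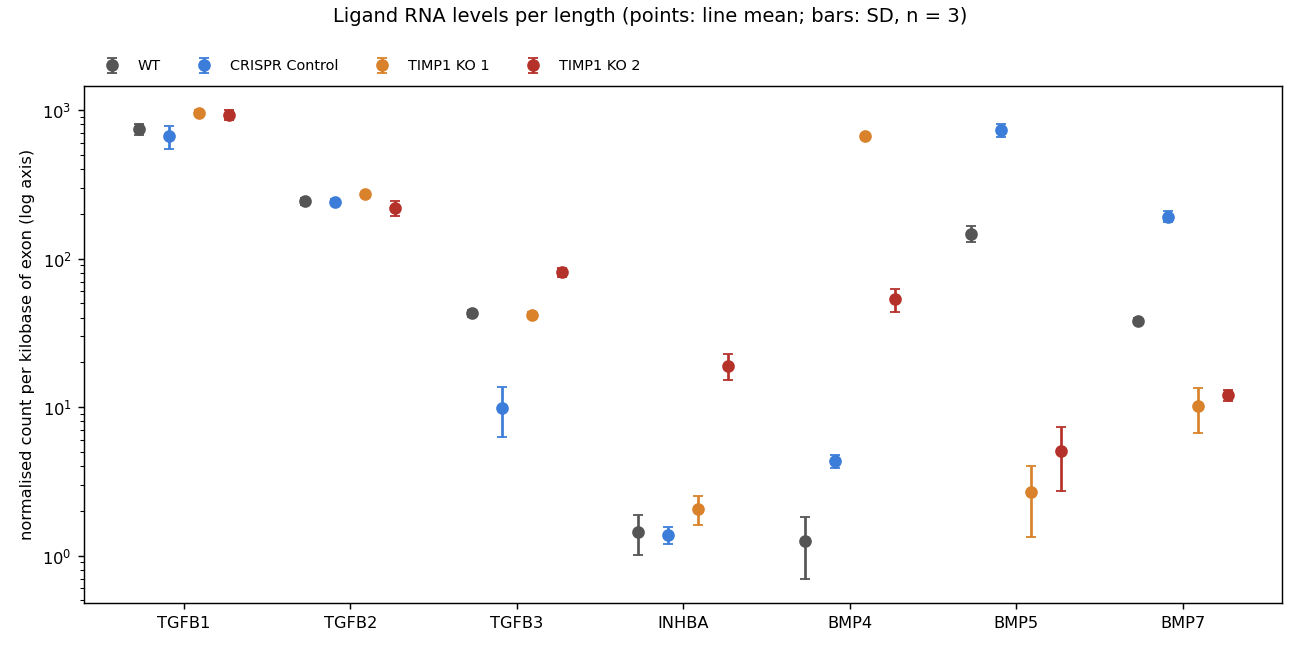
Mean normalised count per kilobase of exon (y axis, log axis) of 5 ligand genes of the set and of BMP5 and BMP7 (x axis) in each line, with SD bars over 3 libraries. BMP4 is highest in KO 1 at 668, and BMP5 and BMP7 are highest in CRISPR Control at 728 and 191.

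Both TGF-β receptors differed between lines by less than 2-fold. TGFBR1, the type I receptor kinase, lies on chromosome 9 at 99104038 to 99154192 (plus strand). Its normalised counts were 1162, 1333 and 1185 in WT and 997, 910 and 940 in CRISPR Control, against 1423, 1480 and 1498 in KO 1 and 1273, 1149 and 1187 in KO 2. KO 1 was above and CRISPR Control below all other libraries, while WT and KO 2 overlapped. TGFBR1 rose by 0.26 in KO 1 against WT (SE 0.079, limma adjusted p = 0.0146) and fell by 0.37 in CRISPR Control (SE 0.079, adjusted p = 0.000676). KO 2 differed from WT by -0.03 (SE 0.079, adjusted p = 0.79). The KO 1 call was lost without WT replicate 1 (0.22, adjusted p = 0.0656), WT replicate 3 (0.24, adjusted p = 0.0647) or KO 1 replicate 3 (0.24, adjusted p = 0.057).

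TGFBR2, the type II receptor that binds the ligand first, lies on chromosome 3 at 30606601 to 30694142 (plus strand). It was lowest in WT, with normalised counts of 2240, 2336 and 2396, compared with 3399, 2923 and 3034 for CRISPR Control, 2774, 2810 and 2928 in KO 1 and 3946, 3752 and 3433 in KO 2. All 3 other lines lay above WT without overlap. The rise against WT was 0.42 for CRISPR Control, 0.29 for KO 1 and 0.67 for KO 2 (SE 0.075 each, limma adjusted p = 0.000109, 0.00531 and 4.01e-07). KO 1 and CRISPR Control overlapped and differed by -0.13 (SE 0.075, adjusted p = 0.127).

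SMAD7, the inhibitory SMAD that both branches induce, lies on chromosome 18 at 48919853 to 48950965 (minus strand). Its normalised counts were 598, 550 and 603 in WT and 654, 623 and 726 in CRISPR Control, against 742, 796 and 774 in KO 1 and 537, 585 and 576 in KO 2. It was highest in KO 1, and WT and KO 2 overlapped. It rose by 0.40 in KO 1 against WT (SE 0.088, limma adjusted p = 0.00147), and differed by -0.04 in KO 2 (SE 0.088, adjusted p = 0.694) and by 0.19 in CRISPR Control (SE 0.088, adjusted p = 0.0732). The last became 0.24 without CRISPR Control replicate 2 (adjusted p = 0.0382). KO 2 was 0.45 below KO 1 (adjusted p = 0.000526).

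ID1, on chromosome 20 at 31605283 to 31606515 (plus strand), followed the order of BMP4 in the deficient lines but not in the competent lines. Its normalised counts were 5873, 5477 and 5560 in WT and 3879, 4532 and 5247 in CRISPR Control, against 11726, 11574 and 12027 in KO 1 and 7379, 8394 and 8338 in KO 2. No pair of lines overlapped. It rose by 1.06 in KO 1 and by 0.51 in KO 2 against WT (SE 0.088 each, limma adjusted p = 2.10e-08 and 8.07e-05) and fell by 0.32 in CRISPR Control (SE 0.088, adjusted p = 0.00537). KO 2 was 0.55 below KO 1 (adjusted p = 6.65e-05). Per kilobase of exon it was the most abundant of the 10 genes in WT (4571 ± 170), KO 1 (9550 ± 187) and KO 2 (6518 ± 463). In CRISPR Control ID3 was higher, at 4025 ± 482 against 3692 ± 555 for ID1.

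ID3, on chromosome 1 at 23557926 to 23559501 (minus strand), had another order. Its normalised counts were 4430, 4182 and 4180 in WT and 5223, 6216 and 6625 in CRISPR Control, against 6626, 6205 and 6108 in KO 1 and 4486, 4970 and 5372 in KO 2. WT was lowest, and CRISPR Control and KO 1 overlapped. The rise against WT was 0.57 in KO 1, 0.49 in CRISPR Control and 0.21 in KO 2 (SE 0.086 each, limma adjusted p = 4.06e-05, 9.46e-05 and 0.0454). The KO 2 call was close to the threshold and was lost when any 1 of 8 libraries was left out, with values from 0.15 to 0.24 and adjusted p from 0.0534 to 0.196. These were the 3 KO 1 libraries, the 3 WT libraries and replicates 2 and 3 of KO 2. The ID genes thus differed in CRISPR Control, where ID1 fell and ID3 rose.

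**Figure D4:**
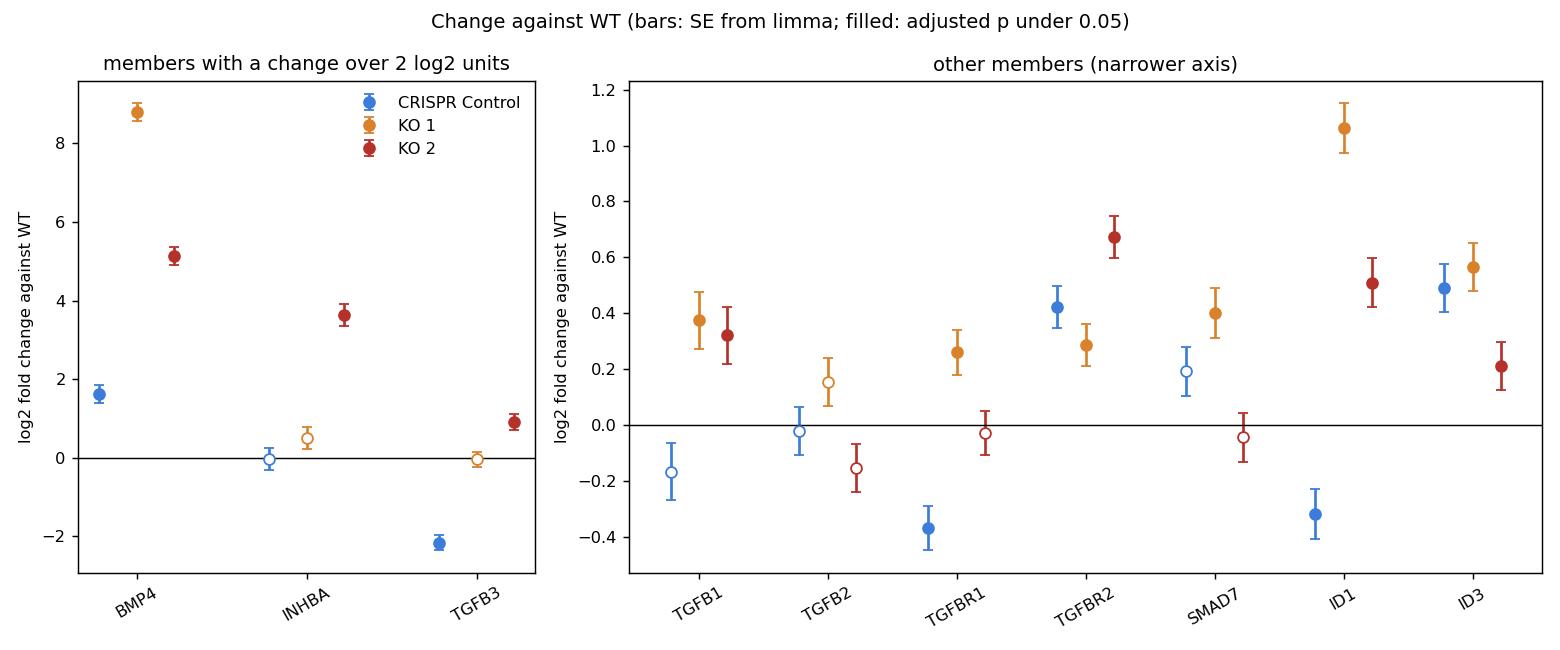
Log2 fold change against WT (y axis; the right panel has a narrower range) of the 10 genes (x axis) in CRISPR Control, KO 1 and KO 2, with limma SE bars and filled points where the adjusted p is under 0.05. No gene has a filled point below 0 in KO 1 or KO 2, and TGFB3, TGFBR1 and ID1 have one in CRISPR Control.

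Counted together, 7 of the 10 genes rose and 0 fell in KO 1 against WT, where 35.5% of all tested genes passed the threshold, 18.0% higher and 17.5% lower. In KO 2 against WT 7 rose and 0 fell, where 55.0% passed, 27.1% higher and 27.9% lower. In CRISPR Control against WT 3 rose and 3 fell, where 53.4% passed, 27.2% higher and 26.3% lower. The genes that rose in KO 1 were TGFB1, BMP4, TGFBR1, TGFBR2, SMAD7, ID1 and ID3, and in KO 2 they were TGFB1, TGFB3, INHBA, BMP4, TGFBR2, ID1 and ID3. Both comparisons share the WT libraries. The median change of the 10 genes was 0.39 in KO 1, 0.42 in KO 2 and -0.03 in CRISPR Control, where the median of all tested genes was 0.00, -0.01 and 0.01. Most changes were small, and 2 of the 10 passed the threshold with a change of at least 2-fold in each of these comparisons. So did 1312 of all 15987 tested genes in KO 1, 2356 in KO 2 and 2346 in CRISPR Control.

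Against CRISPR Control, 6 of the 10 rose and 0 fell in KO 1, where 63.0% of all tested genes passed (31.7% higher, 31.3% lower). In KO 2 7 rose and 2 fell, where 67.7% passed (33.3% higher, 34.4% lower). The pair that fell in KO 2 was SMAD7, by 0.24 (limma adjusted p = 0.0236), and ID3, by 0.28 (adjusted p = 0.00714). The SMAD7 call was lost without CRISPR Control replicate 3 (-0.17, adjusted p = 0.107) and without KO 2 replicate 1 (-0.20, adjusted p = 0.0824). Its rise in KO 1 against CRISPR Control, 0.21 (adjusted p = 0.0456), was lost when any 1 of 8 libraries was left out, namely replicates 1 and 2 of CRISPR Control, the 3 of KO 1, replicates 2 and 3 of KO 2 and replicate 3 of WT, with adjusted p from 0.0523 to 0.142. Between the KO lines 9 of the 10 differed, 3 higher and 6 lower in KO 2, where 38.2% of all tested genes passed, 18.1% higher and 20.1% lower. TGFB3, TGFBR2 and INHBA were higher in KO 2, and TGFB2, TGFBR1, BMP4, SMAD7, ID1 and ID3 were lower.

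With the deficient lines set against the competent lines, 8 of the 10 rose and 0 fell, where 65.9% of all tested genes passed, 32.9% higher and 33.0% lower. The changes were 6.15 for BMP4, 2.08 for INHBA, 1.51 for TGFB3, 0.95 for ID1, 0.43 for TGFB1, 0.30 for TGFBR1, 0.27 for TGFBR2 and 0.14 for ID3. The ID3 value lost its call when any 1 of 8 libraries was left out, with values from 0.09 to 0.15 and adjusted p from 0.0543 to 0.128. These were replicate 1 of CRISPR Control, the 3 of KO 1, replicates 2 and 3 of KO 2 and replicates 2 and 3 of WT. For INHBA, TGFB3 and TGFBR1 the rise did not hold for both KO lines against WT. INHBA in KO 1 (0.50), TGFB3 in KO 1 (-0.04) and TGFBR1 in KO 2 (-0.03) did not pass the threshold. TGFB3 and TGFBR1 also fell in CRISPR Control against WT, by 2.16 and 0.37. TGFB1, BMP4 and ID1 had all 6 deficient libraries above all 6 competent libraries, which held for 12.3% of all tested genes. Of the 10, only TGFB1 moved away from WT alike in KO 1 and KO 2 without differing between CRISPR Control and WT, a condition met by 10.2% of all tested genes. It was not met without WT replicate 2, CRISPR Control replicate 3 or KO 2 replicate 2. BMP4, TGFBR2 and ID3 were higher than WT in all 3 other lines, which held for 3.91% of all tested genes.

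Other genes of the pathways were taken from lists of ligands, receptors, latency and activation proteins, secreted antagonists, SMAD regulators and response genes. Of 107 such genes besides the 10, 75 were tested. In KO 1 against WT 30 rose and 15 fell, that is 60% passed against 35.5% of all tested genes. In KO 2 against WT 33 rose and 21 fell, 72% against 55.0% of all. In CRISPR Control against WT 28 rose and 27 fell, 73.3% against 53.4% of all. In deficient against competent lines 35 rose and 23 fell, that is 77.3% passed against 65.9% of all tested genes. Their median change there was 0.13, against 0.00 for all tested genes. The lists were chosen with earlier results of these libraries known. The counts per list that follow leave out the 10 genes and are for deficient against competent lines unless stated, where 65.9% of all tested genes passed, 32.9% higher and 33.0% lower.

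Among the 13 other tested ligands, 5 were higher and 5 lower in the deficient lines (76.9% passed, against 65.9% of all tested genes). BMP5 and BMP7, other BMP ligands, fell against WT in both KO lines, where BMP4 rose, and like BMP4 rose in CRISPR Control. BMP6, named after its values were seen, went the other way. It rose by 0.79 in KO 1 and 0.39 in KO 2 against WT and fell by 2.05 in CRISPR Control. BMP5 had a mean normalised count of 585 ± 69.4 in WT and 2890 ± 286 in CRISPR Control, against 10.6 ± 5.30 in KO 1 and 20.1 ± 9.25 in KO 2. It fell by 5.79 in KO 1 and by 4.9 in KO 2 against WT (SE 0.319 each, limma adjusted p = 6.04e-11 and 2.88e-10) and rose by 2.31 in CRISPR Control (adjusted p = 7.20e-06). BMP7 was at 206 ± 8.53, 1038 ± 88.4, 54.7 ± 18.4 and 65.0 ± 5.60 in the same order. It fell by 1.94 in KO 1 and by 1.65 in KO 2 and rose by 2.33 in CRISPR Control, each past the threshold.

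Among the 12 other tested receptors and co-receptors, 3 were higher and 5 lower in the deficient lines, and the 66.7% that passed lay near the 65.9% of all tested genes. ENG, the TGF-β co-receptor endoglin, was at 266 ± 24.3 in WT and 84.3 ± 13.9 in CRISPR Control, against 70.1 ± 6.05 in KO 1 and 99 ± 11.8 in KO 2, so that WT alone was high. ACVR2B, an activin type II receptor, was at 140 ± 14.7, 215 ± 29.6, 119 ± 49.2 and 94.3 ± 5.65.

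All 10 tested latency and activation genes differed, 8 higher and 2 lower in the deficient lines, against 65.9% of all tested genes that passed and 32.9% that were higher. LTBP2, a matrix protein named as a member of the latent TGF-β binding protein family, was at 18521 ± 1189 in WT and 1020 ± 167 in CRISPR Control, against 35343 ± 1735 in KO 1 and 35434 ± 969 in KO 2. It rose by 0.93 in KO 1 and 0.94 in KO 2 against WT and fell by 4.19 in CRISPR Control (SE 0.095 each). THBS1, thrombospondin 1, which can activate latent TGF-β, was at 648 ± 26.6, 269 ± 22.7, 2582 ± 86.8 and 2972 ± 182. Against WT it rose by 1.99 in KO 1 and 2.19 in KO 2 (SE 0.083 each, limma adjusted p = 9.29e-13 and 1.44e-13).

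Of the 7 tested secreted antagonists, 4 were higher and 1 lower in the deficient lines, and the 71.4% that passed lay near the 65.9% of all tested genes. FSTL3, which binds activins, rose by 0.43 in KO 1 and 0.55 in KO 2 against WT, and NBL1, a BMP antagonist, by 0.88 and 0.31. Of the 16 other tested SMAD proteins and regulators, 5 were higher and 4 lower, so that 56.2% passed against 65.9% of all tested genes. SMAD9, a BMP-branch SMAD, fell by 0.56 in KO 1 and rose by 0.58 in KO 2 against WT (SE 0.173 each, limma adjusted p = 0.016 and 0.00854), and SMAD6, the inhibitory SMAD of the BMP branch, rose by 0.44 in KO 1 and fell by 0.38 in KO 2 (SE 0.112 each, adjusted p = 0.00473 and 0.00716). Both fell in CRISPR Control, SMAD9 by 2.55 and SMAD6 by 1.53. Their rise in deficient against competent lines, 1.28 and 0.79, therefore did not hold for both KO lines against WT.

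Of the 16 other tested TGF-β response genes, 10 were higher and 6 lower in the deficient lines, so that each passed, against 65.9% of all tested genes. In KO 1 against WT 11 of the 16 rose and 1 fell, where 35.5% of all tested genes passed. For KO 2 against WT these counts were 8 and 4 (55.0% of all passed), and for CRISPR Control 5 and 7 (53.4% of all). TGFBI, a matrix protein gene that TGF-β induces, was at 3005 ± 106 in WT and 782 ± 27.6 in CRISPR Control, against 12546 ± 78.4 in KO 1 and 12662 ± 455 in KO 2. It rose by 2.06 in KO 1 and 2.08 in KO 2 against WT and fell by 1.94 in CRISPR Control (SE 0.063 each). Of the 8 other tested BMP response genes, 5 were higher and 2 lower (87.5% passed, against 65.9% of all). In KO 1 against WT 2 of the 8 rose and 3 fell, where 35.5% of all tested genes passed, and in KO 2 against WT 5 rose and 3 fell, where 55.0% passed. The median change of the 8 was -0.11 in KO 1 and 0.59 in KO 2 against WT. BMP4 and ID1 were higher in KO 1 than in KO 2. Whether the level of BMP4 bears on these genes was not tested.

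**Figure D5:**
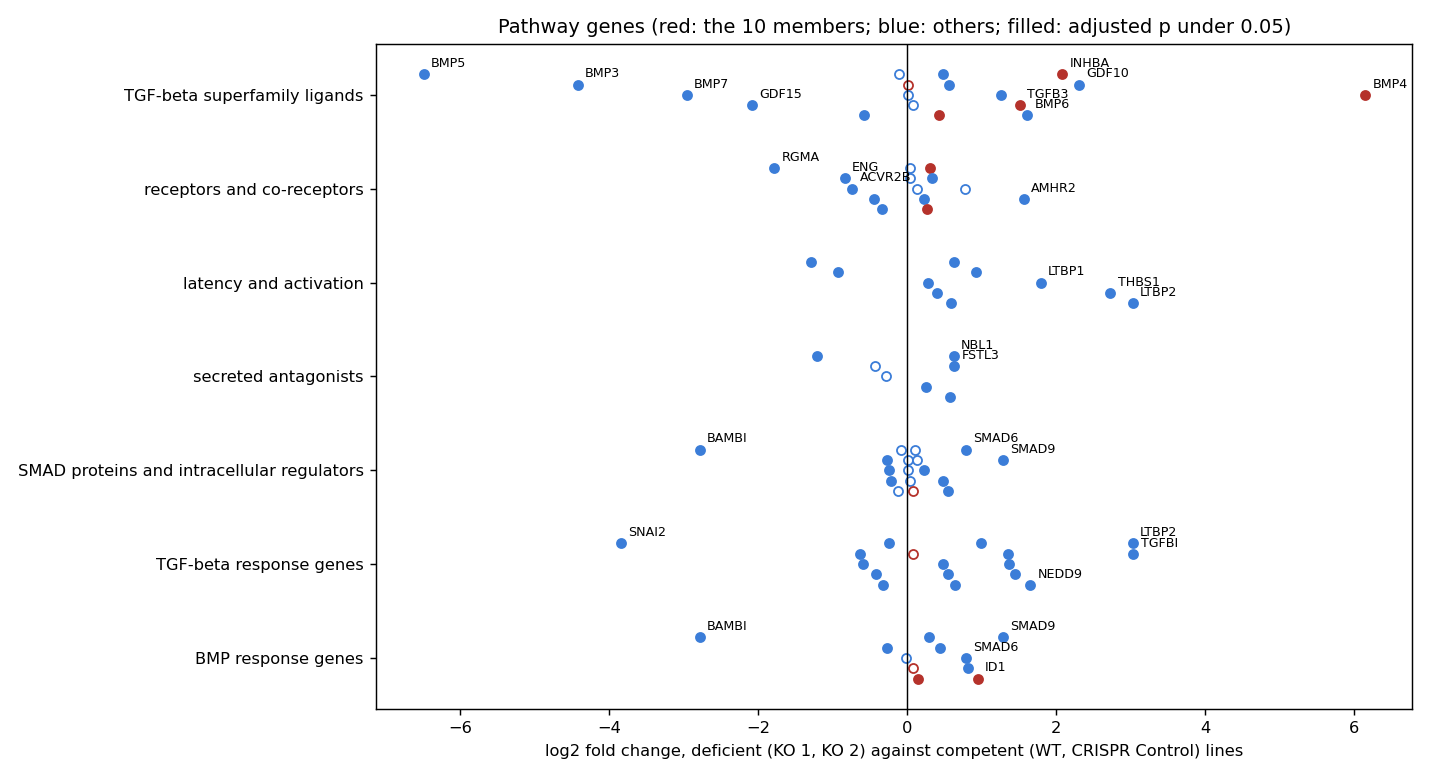
Log2 fold change of deficient against competent lines (x axis) for the tested genes of 7 pathway lists (y axis), with the 10 genes in red, others in blue, and filled points where the adjusted p is under 0.05. Ligands spread widest, from -6.49 for BMP5 to 6.15 for BMP4, and a gene on several lists is drawn in each.

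For each of the 10 genes, the gene (among those averaging 100 or more normalised counts) whose log2 values ran most nearly parallel over the 12 libraries was found, with Pearson's r as a description, since libraries of a line share their cells. For BMP4 it was SPOCK1, a matrix proteoglycan gene (r = 0.992), with a mean normalised count of 230 ± 17.0 in WT and 291 ± 8.27 in CRISPR Control, against 1790 ± 107 in KO 1 and 757 ± 110 in KO 2. For INHBA it was GATA3 (r = 0.981), which stood at 101 ± 7.21, 91.5 ± 9.46, 127 ± 4.84 and 297 ± 7.53. For ID1 it was TMEM158 (r = 0.989), at 302 ± 12.5, 234 ± 57.5, 995 ± 169 and 517 ± 55.3. The others were RHBDD2 for TGFB1 (r = 0.978), MAPK8 for TGFB2 (0.923), MCEE for TGFB3 (0.988), PTBP3 for TGFBR1 (0.978), ZNF641 for TGFBR2 (0.979), HTRA3 for SMAD7 (0.975) and WIPI2 for ID3 (0.955). Among the 10 genes themselves r was highest for BMP4 with ID1 (0.903) and TGFB1 with ID1 (0.902), and it was 0.804 for SMAD7 with ID3.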

How the data were processed

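The authors trimmed reads with Cutadapt, mapped them to GRCh38 with STAR, counted them per gene and divided counts by DESeq2 size factors. The deposited values are thus a signal of normalised read counts, which makes the typical gene equal between libraries. Every positive value was a whole multiple of a library's step (100% within 0.01 reads), so reads were recovered. A blank line and 4 columns of line means were not used. limma 3.58.1 (R 4.3.3) was fitted with trend on log2(normalised count + 1) over 12 libraries and 4 line means, for genes with a mean of at least 10. The p-values were adjusted by Benjamini-Hochberg over all 15987 genes at a threshold of 0.05. Tests were two-sided, for 7 comparisons. edgeR 4.0.16 and DESeq2 1.42.0 on recovered reads were among the alternatives. The fit was tested on simulated data.

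Members, pathway lists and tests were chosen with earlier results of these data known. Named pathway genes were the 2 per list with the largest change in deficient against competent lines and a mean of at least 100, and for each member the gene most parallel to it. CCN2 and HJV were listed under older symbols. CRIPTO was not analysed here. Coordinates and exon lengths come from GENCODE 44. Its versions matched 97.6% of identifiers. No replicate repeated another: their chi-square per gene was 4.61 to 29.7. The summed leukocyte markers are not reported here.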

Additional observations from a re-analysis of the deposited data

Results flagged for a closer look

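For 9 of the 10 genes the effect of KO 2 differed from that of KO 1, by the limma test of the difference between these lines. The KO 2 effect minus the KO 1 effect, in log2, was 3.13 for INHBA, 0.95 for TGFB3 and 0.39 for TGFBR2. It was -3.66 for BMP4, -0.55 for ID1, -0.45 for SMAD7, -0.36 for ID3, -0.31 for TGFB2 and -0.29 for TGFBR1. WT cancels from this difference, which is that of KO 2 and KO 1 directly. In all, 38.2% of tested genes differed between these clones. The cause of the differences between the clones was not tested.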

How the results depend on the processing

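The directions and calls of all 70 member changes held with edgeR, with DESeq2 and with a pseudocount of 10. On the recovered reads edgeR called 5796 of all genes in KO 1 and 8969 in KO 2 against WT, where limma called 5682 and 8791. With an absolute log2 fold change of at least 1 also required, fewer members were called, because most changes were small. Against WT, 2 were left in KO 1, 2 in KO 2 and 2 in CRISPR Control. There 1312, 2356 and 2346 of all 15987 tested genes passed. Against CRISPR Control, 3 were left in KO 1 and 3 in KO 2, where 3383 and 3919 of all passed. Between the KO lines 2 were left (1319 of all). Between deficient and competent lines 3 were left (2324 of all), and in the intersection 0 (435 of all). Without each library in turn the intersection ranged from 0 to 1. A minimum mean of 50 left INHBA out. With no minimum, ID3 in KO 2 against WT, ID3 in deficient against competent lines and SMAD7 in KO 1 against CRISPR Control lost their calls, and with only the lines compared so did SMAD7 in KO 1 and in KO 2 against CRISPR Control.

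The reversed values were all of changes that had not passed the threshold. With libraries scaled to equal totals, TGFBR1 in KO 2 against WT was 0.068, SMAD7 in KO 2 against WT 0.051 and TGFB1 in KO 2 against KO 1 0.05. With quantile normalization, TGFBR1 in KO 2 against WT was 0.001, INHBA in CRISPR Control against WT 0.028 and TGFB1 in KO 2 against KO 1 0.033. Over the fits without 1 library, INHBA in CRISPR Control against WT ranged from -0.259 to 0.152, TGFB2 in CRISPR Control against WT from -0.066 to 0.011, TGFB2 in deficient against competent lines from -0.026 to 0.06, TGFBR1 in KO 2 against WT from -0.069 to 0.034, ID3 in KO 1 against CRISPR Control from -0.025 to 0.147 and TGFB1 in KO 2 against KO 1 from -0.095 to 0.01. The cause was not tested.

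Calls lost with equal totals were ID3 (-0.17) and SMAD7 (-0.12) in KO 2 against CRISPR Control, and TGFB2 (-0.21) and TGFBR1 (-0.18) in KO 2 against KO 1. Equal totals moved the median of all genes by 0.114 in KO 2 against CRISPR Control and by 0.102 in KO 2 against KO 1, and the share of called genes that rose from 49.3% to 59.9% in KO 2 against WT and from 47.4% to 65.5% in KO 2 against KO 1. Quantile normalization lost SMAD7 in KO 1 (0.14) and ID3 in KO 2 (-0.17) against CRISPR Control. With the replicate block, SMAD7 in KO 1 against CRISPR Control lost its call (0.21, limma adjusted p = 0.0547) and no other member call changed. Same-numbered libraries did not deviate together (r from -0.129 to 0.16 over 18 pairs, 2 of them over 0.1, with 6 of 12 libraries closest to their own number), so the numbers were not taken to pair the samples. The 12 reads of BMP4 in WT limit the precision of its fold change.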

Other observations

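Per kilobase of exon, BMP6 made up most of the summed level of the 10 listed BMP ligands in WT, KO 1 and KO 2. In CRISPR Control BMP5 was the largest part. The sum was 1123 ± 21.1 in WT and 1214 ± 49.7 in CRISPR Control, against 2249 ± 19.8 in KO 1 and 1262 ± 9.32 in KO 2. BMP6, chosen after its values were seen, made up 76.9% ± 1.58 of it in WT and 17.2% ± 0.96 in CRISPR Control, against 66.3% ± 1.32 in KO 1 and 89.4% ± 0.08 in KO 2. BMP5 made up 59.9% ± 3.54 in CRISPR Control and 13.1% ± 1.82 in WT, but 0.12% ± 0.06 in KO 1 and 0.40% ± 0.18 in KO 2. BMP4 made up 29.7% ± 1.24 in KO 1, 4.20% ± 0.80 in KO 2, 0.36% ± 0.05 in CRISPR Control and 0.11% ± 0.05 in WT. BMP6 rose by 0.79 in KO 1 and by 0.39 in KO 2 against WT and fell by 2.05 in CRISPR Control (SE 0.064 each, limma adjusted p = 1.58e-08, 5.13e-05 and 5.37e-15). These are RNA levels, and protein was not analysed here.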
